A study of Mus musculus with 6 samples.

Results

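The 36 genes described here encode the machinery of autophagy and its cargo receptors. They were chosen by name, and their probes were found through the RefSeq accession that the array design gives for each probe. All 36 had a named probe, 47 probes in all, out of 20283 genes with a named probe on the array. Of these, 34 were well above background and tested, among 10948 genes tested in all, and each of the 34 was well above background on all 4 arrays. The cells were bone-marrow-derived macrophages of C57BL/6 mice aged 6 to 8 weeks, which the labels call M2, the alternatively activated state. They were kept for 6 h in complete DMEM with WGP or in complete DMEM alone. WGP, whole glucan particles, are yeast cell-wall particles made mostly of beta-glucan, which macrophages bind through C-type lectin receptors and engulf. The labels do not name the agent that polarized the cells of both groups, nor whether the replicates are different cultures or mice. The p-values therefore cover the spread among these arrays alone, and that spread may be technical.

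Each group had 3 deposited files, but the third of each group repeated the scanner values of the first, which leaves n = 2 arrays a group. The WGP arrays had 46.6% and 45.0% of 39429 probes well above background, and the medium arrays 50.7% and 46.6%. A level here is the log2 ratio of a probe's processed signal to the 75th percentile of its array. Each change is WGP minus medium on that scale. An adjusted p is from limma's test over all 10948 genes, unless another setting or all kept probes are named. All 7 named macrophage markers were above background, with a summed signal (in units of the 75th percentile) of 1920 and 1657 with WGP against 1483 and 1434 in medium. Csf1r, which did not pass the test (0.46, adjusted p = 0.0589), made up most of this sum; Cd14 was 2.25-fold higher, and Mertk, Fcgr1 and Lyz2 were 3.70-fold, 2.29-fold and 1.39-fold lower with WGP. Of 7 M2 markers, Arg1 and Retnla were below background throughout, and the sum, mostly Mgl2, was 70.5 and 69.5 with WGP against 100 and 78.3 in medium. Clec10a was 16.4-fold lower (adjusted p = 0.00137), Mrc1 1.56-fold lower and Egr2 6.99-fold higher with WGP. Markers of other cell types also differed. The B cell markers Cd79a and Cd79b were lower with WGP, and Ms4a1 was not above background. The summed signal of 5 erythroid markers was 0.395 and 0.329 with WGP against 1.27 and 1.02 in medium, with Epor and Hba-a1 lower and 3 not above background. That of 5 dendritic cell markers was 3.30 and 3.21 with WGP against 1.77 and 1.48 in medium, with Itgax and Ccr7 higher and Flt3 and Xcr1 not above background. Of 4 tested neutrophil and 2 tested T cell markers 0 passed the test, 1 of 4 tested fibroblast markers (Col3a1) was lower, and 3 NK cell markers were below background throughout. Their part in the results was not tested, and in RNA from whole cultures fewer cells of a type and less RNA per cell cannot be told apart.

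Autophagy encloses cytoplasm in a double membrane and delivers it to lysosomes. A kinase complex around ULK1 starts the process, a lipid kinase complex around PIK3C3 marks the membrane, ATG9 and ATG2 supply lipid, and a pair of ubiquitin-like conjugation systems attach LC3 and GABARAP proteins to it. Cargo receptors then tie ubiquitinated or damaged material to LC3 or GABARAP. In macrophages the conjugation systems also act on single-membrane phagosomes, a process called LC3-associated phagocytosis, which engulfed beta-glucan can start through the receptor dectin-1 and which needs the NADPH oxidase and the PIK3C3 complex with UVRAG and Rubicon, but not the ULK1 complex.

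With WGP, the autophagy genes moved in both directions. The transcripts of the cargo receptors Optn and Sqstm1 rose 3.37-fold and 2.96-fold, and Tax1bp1, Atg12, Atg5, Atg3, Gabarapl1 and Atg13 rose by less. Ulk2, Calcoco1, Uvrag, Atg2a, Atg16l2, Ulk1 and Nbr1 fell, the first by 2.16-fold. In all, 15 of 34 tested members passed the threshold (an adjusted p under 0.05), 8 higher and 7 lower, or 44.1%. Over all tested genes 40.6% passed it, 23.2% higher and 17.4% lower, so the count among the autophagy genes lay near that of the array as a whole. The median change of the 34 was -0.099, beside 0.028 for all tested genes. Changes that passed the threshold and were at least 2-fold were found in 3 of the 34, against 14.7% of all genes. Pik3c3 and Atg10 had larger estimates than Ulk2 but did not pass. The 2 groups of arrays did not overlap in 30 of the 34, against 75.1% of all genes. Without overlap, the same direction on both slides follows by construction, and the same 30 had it. By role, the median change was 0.91 for 5 cargo receptors, 0.24 for 5 LC3 and GABARAP proteins and 0.16 for 2 tested ATG4 proteases. It was 0.14 for 7 conjugation genes, -0.21 for 5 genes of the class III PI3 kinase complex and -0.27 for 5 of the ULK1 complex. For the 5 ATG9, ATG2 and WIPI genes it was -0.45. Apart from the cargo receptors, each median came from genes that did not pass the test. The other probes of Atg7 and Wipi2, the middle genes of their roles, had the opposite sign. No gradient by role was tested.

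**Figure D1:**
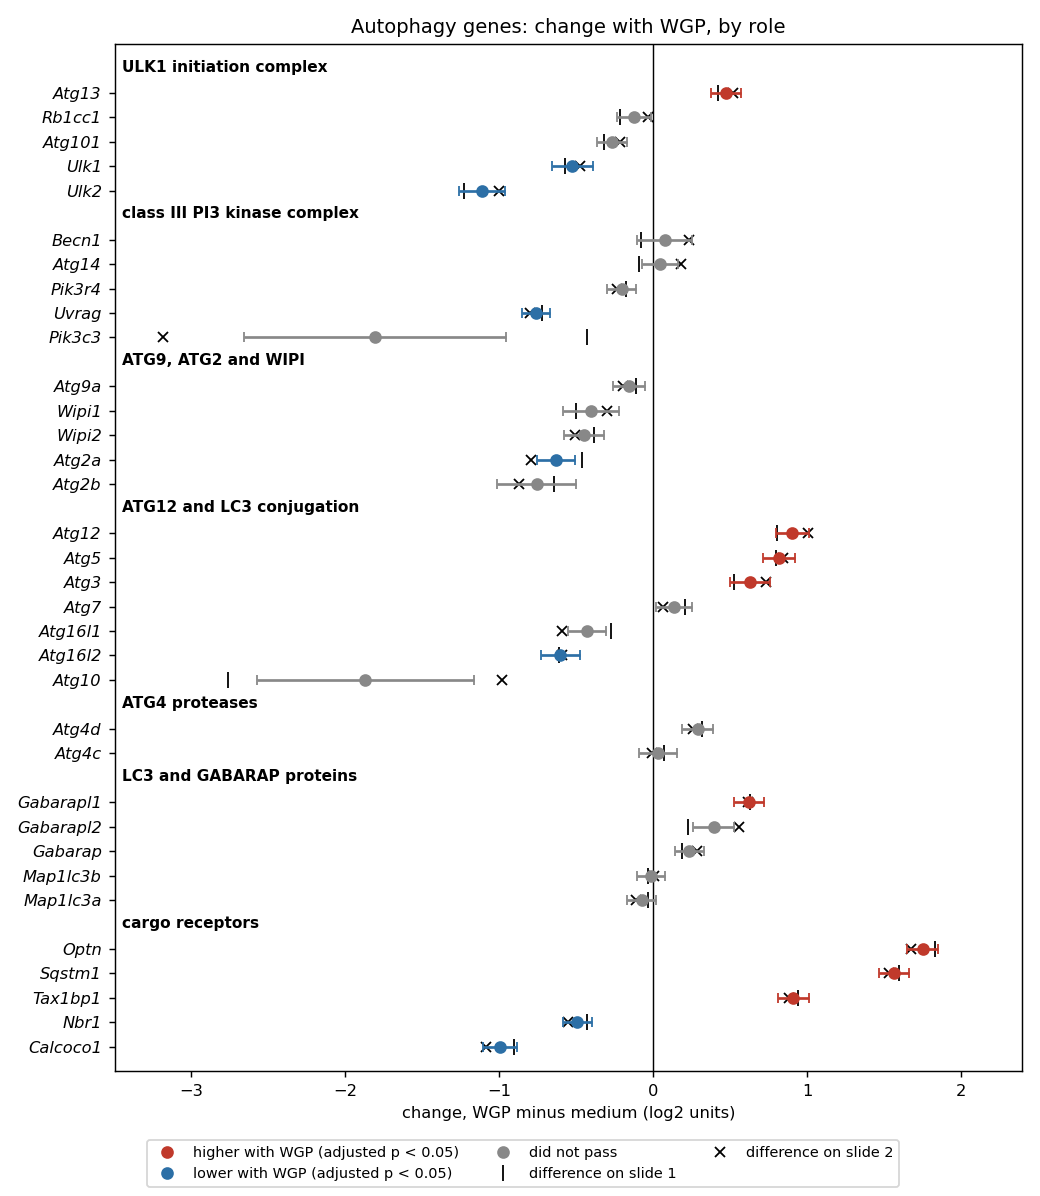
Change of each of the 34 tested autophagy genes with WGP (WGP minus medium, log2 units, horizontal axis), grouped by role. Points are limma estimates with their SE, and the marks give the difference on slide 1 and on slide 2. The receptors Optn and Sqstm1 lie farthest to the right, and the wide bars of Pik3c3 and Atg10 come from medium arrays that lay far apart.

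The kinases that start autophagy were lower with WGP, while their adaptor was higher. Ulk2, a paralog of the initiating kinase ULK1, had levels of -0.49 and -0.59 with WGP against 0.74 and 0.41 in medium. Both WGP arrays were below both medium arrays, a 2.16-fold fall (-1.11 ± 0.15, SE, n = 2 each, adjusted p = 0.00939). A second Ulk2 probe lay below the background limit on every array. Ulk1 itself was at 3.73 and 3.59 with WGP and at 4.31 and 4.07 in medium, without overlap (-0.53 ± 0.13, adjusted p = 0.0409). Atg13, the adaptor that ULK1 phosphorylates, was at 3.49 and 3.48 with WGP against 3.06 and 2.96 in medium, a 1.39-fold rise (0.47 ± 0.098, adjusted p = 0.0253). Neither of the other subunits passed the test as reported. Atg101, which stabilizes ATG13, changed by -0.27 ± 0.098 (adjusted p = 0.0983), and the scaffold Rb1cc1, also called FIP200, by -0.12 ± 0.11 (adjusted p = 0.419). The calls of Ulk1 and Atg13 ended without any 1 of the 4 arrays (adjusted p of 0.0532 to 0.162 for Ulk1 and of 0.0519 to 0.12 for Atg13). Median scaling (adjusted p = 0.0804) and adjustment over every kept probe (adjusted p = 0.0519) also ended that of Ulk1, while quantile normalization (adjusted p = 0.0783) and normexp background correction (adjusted p = 0.0689) ended that of Atg13.

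In the class III PI3 kinase complex, Uvrag was the member that passed the test. UVRAG takes the place of ATG14 in the form of the complex that acts on endosomes and phagosomes. Its levels were 2.19 and 2.15 with WGP against 2.91 and 2.95 in medium, a fall of 1.69-fold (-0.76 ± 0.093, SE, adjusted p = 0.00767). The replicates lay close together in both groups. Atg14, the subunit of the form that builds autophagosomes, had overlapping groups (0.044 ± 0.12, adjusted p = 0.782), as had the shared subunit Becn1 (0.077 ± 0.18, adjusted p = 0.752). The regulatory subunit Pik3r4, averaged over 10 spots, changed by -0.21 ± 0.092 (adjusted p = 0.148). The catalytic subunit Pik3c3 had a wide spread. Its brighter probe was at -0.995 and -1.32 with WGP and at -0.56 and 1.86 in medium, so that 1 medium array stood far above the other 3 (-1.81 ± 0.85, adjusted p = 0.162). The size rested on that array: without it (medium replicate 2) the change was -0.59 (adjusted p = 0.118), and without medium replicate 1 it was -3.02 (adjusted p = 0.0141). Its dimmer probe was at -2.91 and -3.15 with WGP against -2.10 and -2.55 in medium, with no such array (adjusted p = 0.0629 over all kept probes).

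All 5 genes of membrane supply and recognition had lower means with WGP, and 1 passed the test, where 40.6% of all tested genes passed. The sign turned with normexp for Atg2b and Wipi1 and with median scaling for Atg9a. Atg2a, a lipid transfer protein that feeds the growing membrane, was at -0.46 and -0.60 with WGP against -0.0017 and 0.20 in medium (-0.63 ± 0.12, SE, adjusted p = 0.0222). Its paralog Atg2b was at -2.52 and -2.17 with WGP and at -1.88 and -1.29 in medium, with a larger estimate and a wider spread (-0.76 ± 0.25, adjusted p = 0.0799). With the slide as a block Atg2b passed (adjusted p = 0.0239), as it did without medium replicate 1 (-1.05, adjusted p = 0.0485). Without medium replicate 2 the change was -0.46 (adjusted p = 0.192), and without WGP replicate 1 it was -0.58 (adjusted p = 0.233). Atg9a, the lipid scramblase of the vesicles that seed autophagosomes, changed by -0.16 ± 0.10 (adjusted p = 0.293). Wipi2, which binds the lipid made by PIK3C3 and recruits ATG16L1, changed by -0.45 ± 0.13 (adjusted p = 0.0567), but its second kept probe by 0.18, so the direction rests on the probe. Both probes of its relative Wipi1 were lower with WGP, by -0.40 ± 0.18 for the brighter (adjusted p = 0.151) and -0.69 for the dimmer, which passed among all kept probes (adjusted p = 0.0204). Median scaling ended the call of Atg2a (adjusted p = 0.0691), as did leaving out WGP replicate 1, WGP replicate 2 or medium replicate 2 (adjusted p of 0.0693, 0.101 and 0.07).

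The conjugation genes split. Atg12, the ubiquitin-like protein that is joined to ATG5, was at 4.57 and 4.64 with WGP against 3.77 and 3.63 in medium, a 1.87-fold rise (0.91 ± 0.10, SE, adjusted p = 0.00677). Its second probe rose by 0.86 (adjusted p = 0.0142 over all kept probes). Atg5, the partner of ATG12, was at 3.34 and 3.47 with WGP against 2.54 and 2.63 in medium, a 1.76-fold rise (0.82 ± 0.11, adjusted p = 0.0085). Both groups were tight and well apart for these genes. Atg3, the enzyme that transfers LC3 to lipid, was at 0.057 and 0.0077 with WGP against -0.47 and -0.73 in medium, or 1.55-fold higher (0.63 ± 0.13, adjusted p = 0.0248). Atg16l2, a paralog of the ATG16L1 subunit that holds the ATG12-ATG5 conjugate, went the other way, at -0.71 and -0.87 with WGP against -0.094 and -0.28 in medium (-0.60 ± 0.13, adjusted p = 0.0259). Its dimmer probe was lower too (adjusted p = 0.0119 over all kept probes), with neither WGP array well above background. Atg16l1 was at -1.79 and -2.003 with WGP and at -1.52 and -1.41 in medium (-0.43 ± 0.12, adjusted p = 0.0543).

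The activating enzyme of both conjugation systems, Atg7, gave different answers by probe. The brighter probe changed by 0.14 ± 0.12 (adjusted p = 0.398), and the dimmer, at -0.56 and -0.57 with WGP against 0.0017 and 0.46 in medium, by -0.80 (adjusted p = 0.0405 over all kept probes). Atg10, the enzyme that transfers ATG12, had 1 medium array far above the other: its brighter probe was at -2.36 and -2.59 with WGP and at 0.40 and -1.61 in medium (-1.87 ± 0.71, adjusted p = 0.104). The dimmer Atg10 probe was at -2.23 and -2.15 with WGP against -1.84 and -1.82 in medium. This was a smaller difference of -0.36 (adjusted p = 0.0595 over all kept probes). The brighter probe passed without medium replicate 1 (-0.86, adjusted p = 0.043) and without medium replicate 2 (-2.88, adjusted p = 0.0138), so its size rests on which medium array is used. Of the members that changed, the call of Atg16l2 ended without any 1 of the 4 arrays (adjusted p of 0.0521 to 0.115), and that of Atg3 without WGP replicate 1 (0.103), WGP replicate 2 (0.0874) or medium replicate 2 (0.0627). Without 1 array, Atg12 kept an adjusted p of 0.0246 to 0.0401 and Atg5 of 0.0347 to 0.0493.

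The LC3 and GABARAP proteins, which coat the membrane and bind the cargo receptors, changed in 1 of 5 cases, where 40.6% of all tested genes changed. Gabarapl1 was at 6.84 and 6.90 with WGP against 6.21 and 6.28 in medium, a 1.54-fold rise (0.62 ± 0.097, SE, adjusted p = 0.0129) that was 0.63 on slide 1 and 0.62 on slide 2. Leaving out either WGP array ended its call (adjusted p of 0.0626 and 0.0744). Gabarapl2 changed by 0.39 ± 0.13 (adjusted p = 0.0798) and Gabarap by 0.24 ± 0.095 (adjusted p = 0.118), with both probes of Gabarap giving a higher mean with WGP. The LC3 genes had smaller estimates. Map1lc3b, averaged over 10 spots an array, was at 3.36 and 3.35 with WGP and at 3.39 and 3.34 in medium, with overlapping groups (-0.013 ± 0.092, adjusted p = 0.917). Map1lc3a changed by -0.075 ± 0.095 (adjusted p = 0.561). The ATG4 proteases trim LC3 and GABARAP and later release them from lipid. Of these, Atg4d changed by 0.29 ± 0.099 (adjusted p = 0.0842) and Atg4c by 0.031 ± 0.12 with overlapping groups (adjusted p = 0.852). Atg4a and Atg4b stayed below the background limit on every array and were not tested.

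All 5 cargo receptors passed the test, 3 higher and 2 lower with WGP, where 40.6% of all tested genes passed. Optn encodes optineurin, a receptor for damaged mitochondria and bacteria. It was at 0.56 and 0.45 with WGP against -1.27 and -1.23 in medium, a 3.37-fold rise (1.75 ± 0.10, SE, adjusted p = 0.00195). Sqstm1 encodes p62, which gathers ubiquitinated proteins into condensates and also binds KEAP1, the inhibitor of the antioxidant factor NRF2. Its levels were 4.59 and 4.63 with WGP against 3.00 and 3.10 in medium, a 2.96-fold rise (1.56 ± 0.098, adjusted p = 0.00223). For both genes the gap between the groups was far wider than the difference between replicates. Tax1bp1, a receptor for ubiquitinated cargo that also binds the NF-kappaB inhibitor A20, was at 1.82 and 1.71 with WGP against 0.88 and 0.83 in medium, a 1.88-fold rise (0.91 ± 0.10, adjusted p = 0.00595).

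The other 2 receptors fell. Calcoco1, a receptor for endoplasmic reticulum and Golgi membranes, was at -1.73 and -1.75 with WGP against -0.83 and -0.66 in medium, a 1.99-fold fall (-0.99 ± 0.11, SE, adjusted p = 0.00593). Nbr1, which resembles p62 in its domains and joins it in condensates, was at -0.20 and -0.25 with WGP against 0.24 and 0.31 in medium, a 1.41-fold fall (-0.49 ± 0.096, adjusted p = 0.022). On slides 1 and 2 the differences were 1.83 and 1.67 for Optn, 1.60 and 1.53 for Sqstm1, 0.94 and 0.88 for Tax1bp1, -0.90 and -1.09 for Calcoco1, and -0.43 and -0.56 for Nbr1. The call of Nbr1 ended without any 1 of the 4 arrays (adjusted p of 0.0536 to 0.117) and with median scaling (adjusted p = 0.117). With normexp background correction the change of Optn was 0.73 and that of Calcoco1 was -0.19, which no longer passed (adjusted p = 0.113).

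**Figure D2:**
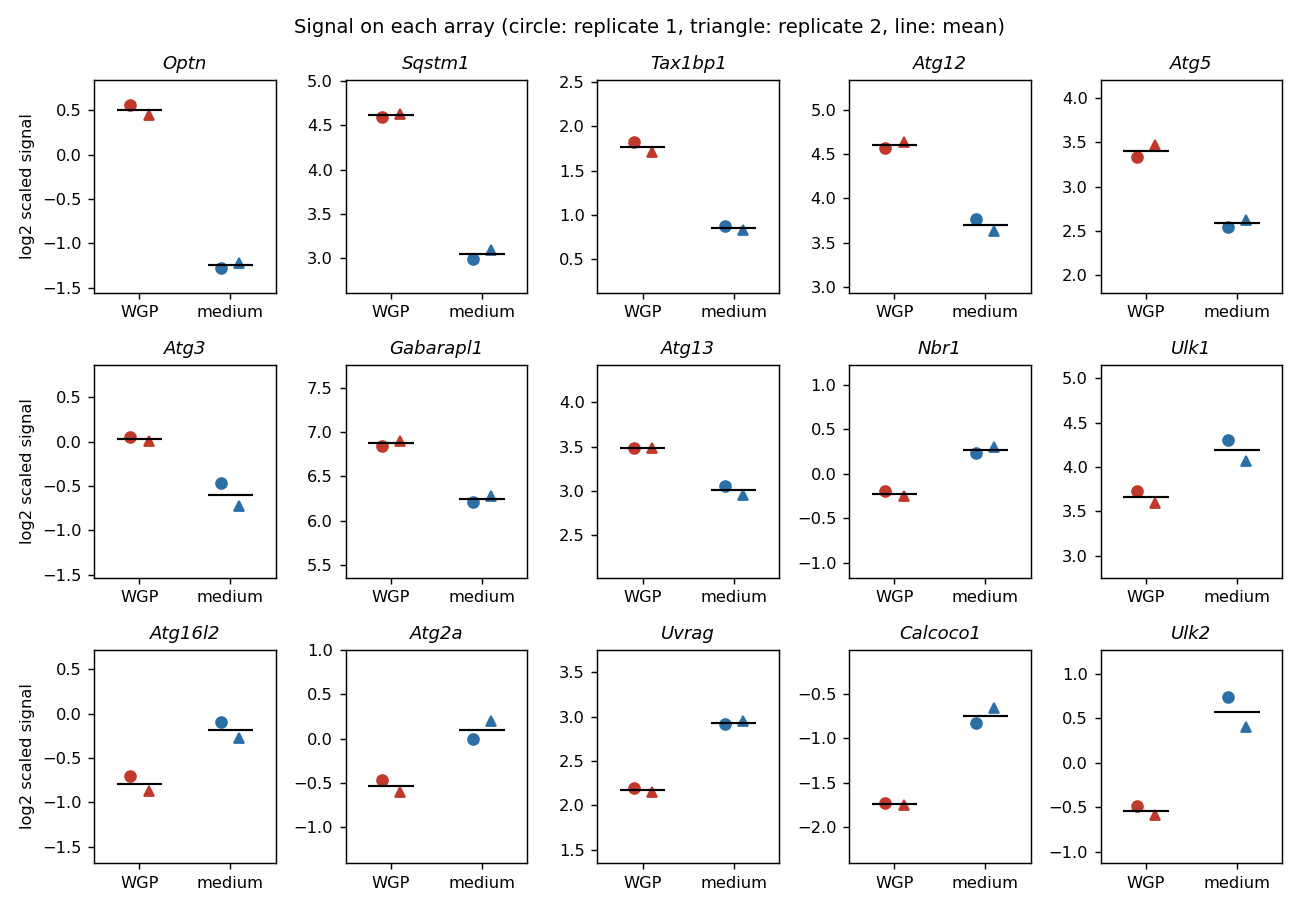
Level on each array (log2 of the signal relative to the array's 75th percentile, vertical axis) of the 15 autophagy genes past the threshold, with WGP at the left and medium at the right of each panel. Circles are replicate 1, triangles replicate 2 and lines the mean, and every panel spans the same number of log2 units. No panel has overlapping groups, with the widest gap in Optn and the narrowest in Ulk1.

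The start regions of 5 changed genes are printed: Sqstm1 and Optn, which rose most, Atg3, which held a CLEAR element, and Tax1bp1 and Ulk2, which held an antioxidant response element. RefSeq (GRCm38.p6) gave 34 windows for 30 of the 36 members, each from 250 bases before to 50 after an annotated start. Both strands were searched for the CLEAR element TCACGTGA, bound by TFEB and its relatives, the E-box CACGTG, which lies within it, and the antioxidant response element TGACNNNGC, bound by NRF2. The windows are chr11:50210771-50211070 (minus strand) for Sqstm1, chr2:5064068-5064367 (minus strand) for Optn, chr6:52713915-52714214 (plus strand) for Tax1bp1, chr16:45158579-45158878 (plus strand) for Atg3 and chr11:61855043-61855342 (minus strand) for Ulk2, written 5′ to 3′ on the strand of the gene with matches in capitals.
Sqstm1: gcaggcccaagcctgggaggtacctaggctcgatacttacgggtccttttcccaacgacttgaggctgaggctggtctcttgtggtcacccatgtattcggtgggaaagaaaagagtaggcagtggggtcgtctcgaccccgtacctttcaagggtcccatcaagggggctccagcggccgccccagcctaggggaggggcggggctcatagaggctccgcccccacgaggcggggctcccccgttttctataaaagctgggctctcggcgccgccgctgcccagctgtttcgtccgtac
Optn: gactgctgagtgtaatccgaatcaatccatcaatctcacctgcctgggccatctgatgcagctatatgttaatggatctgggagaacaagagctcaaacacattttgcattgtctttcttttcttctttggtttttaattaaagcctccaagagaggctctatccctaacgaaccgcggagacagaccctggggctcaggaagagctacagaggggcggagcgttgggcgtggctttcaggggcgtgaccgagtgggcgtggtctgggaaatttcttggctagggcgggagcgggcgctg
Tax1bp1: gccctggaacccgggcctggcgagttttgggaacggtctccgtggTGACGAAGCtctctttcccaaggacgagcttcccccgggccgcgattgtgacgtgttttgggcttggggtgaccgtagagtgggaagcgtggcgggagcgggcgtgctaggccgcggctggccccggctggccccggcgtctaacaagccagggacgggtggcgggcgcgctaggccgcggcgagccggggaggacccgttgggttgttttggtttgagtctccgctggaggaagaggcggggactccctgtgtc
Atg3: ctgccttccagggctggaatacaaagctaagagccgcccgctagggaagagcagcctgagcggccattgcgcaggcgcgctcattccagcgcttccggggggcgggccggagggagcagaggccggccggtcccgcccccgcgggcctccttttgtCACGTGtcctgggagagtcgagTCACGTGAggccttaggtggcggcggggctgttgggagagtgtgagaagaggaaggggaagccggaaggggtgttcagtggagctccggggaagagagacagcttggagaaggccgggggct
Ulk2: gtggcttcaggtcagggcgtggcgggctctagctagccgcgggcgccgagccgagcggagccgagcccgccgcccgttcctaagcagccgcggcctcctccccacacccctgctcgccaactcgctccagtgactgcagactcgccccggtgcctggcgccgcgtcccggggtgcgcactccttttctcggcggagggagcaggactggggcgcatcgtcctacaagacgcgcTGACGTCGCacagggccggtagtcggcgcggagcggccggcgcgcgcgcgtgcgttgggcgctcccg
Atg3 held the CLEAR element, starting 72 bases upstream of the annotated start, and a separate E-box 94 bases upstream. It was the 1 member with a CLEAR element in its window, against 0.974% of all 32851 windows. An E-box was found in 4 of the 30 members with a window, among them Atg5, which rose. It was in 7.15% of all 32851 windows. The antioxidant response element was found in 4 of the 30 members and in 12.4% of all windows. Of the 4, Tax1bp1 (in this window but not in its second one) and Atg13 rose, Ulk2 fell and Map1lc3b did not pass the test. Some members had a second window, so counts of members and shares of windows are unlike measures. The windows of Sqstm1 and Optn held none of these letters, which says nothing about sequence outside them. A match is a description of letters and no evidence of binding.

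Genes on 8 lists related to the pathway also went both ways, apart from NRF2 targets. The lists hold textbook genes but were chosen with earlier results of these data known, so their counts are a description only. Of 12 NRF2 targets tested, 9 rose and 0 fell, with a median of 2.35, beside 0.028 over all genes. The median was 2.29 with 2 genes that medium arrays did not detect set at the floored fold explained below. The sulfiredoxin gene Srxn1 rose 19.0-fold (adjusted p = 0.00129), the malic enzyme gene Me1 12.8-fold (adjusted p = 0.00129, with 1 of 2 medium arrays above background) and the thioredoxin reductase gene Txnrd1 12.4-fold (adjusted p = 0.00137). Gclm, a subunit of the enzyme that limits glutathione synthesis, was higher (adjusted p = 0.00274), with a floored fold of 5.45. Medium arrays did not detect it, and each was set at the level of its dimmest detected probe. Floored folds of other genes were made in the same way for the group that did not detect them. They are no strict lower bounds, because undetected probes can lie above that level. The dimmer Atg16l2 probe, undetected with WGP at -2.55 and -2.63, was above the floors of -3.06 and -3.62 there. With normexp background correction the log2 change was smaller, 0.87 for Gclm and 1.48 for Me1, and Gclm was then below its floored fold. Of 12 transcription factors that act on autophagy genes, 6 rose and 2 fell (66.7% changed), with a median of 0.48. Cebpb rose 6.35-fold (adjusted p = 0.00137), Hif1a 4.36-fold (adjusted p = 0.00152), Atf4 3.29-fold (adjusted p = 0.00669) and Mitf, a relative of TFEB, 2.53-fold (adjusted p = 0.00466). With normexp the change of Hif1a was 0.77 on the log2 scale.

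Regulators upstream of ULK1 split as well. Of 20 tested genes of MTORC1 and AMPK control, 4 rose and 6 fell (median 0.08). Deptor, an inhibitor of MTOR, was lower with WGP (adjusted p = 0.00332), with a floored fold of 6.05. Sesn1, a stress-induced inhibitor of MTORC1, was 4.28-fold lower (adjusted p = 0.00165). Prkag2, a subunit of AMPK, fell 1.89-fold (adjusted p = 0.00845). Rheb, the GTPase that activates MTORC1, was higher (adjusted p = 0.00716), with a floored fold of 1.98. With normexp the log2 changes of Deptor and Rheb were -0.55 and 0.34, both smaller than their floored folds. Of 16 other core genes and regulators, 4 rose and 5 fell (56.2% changed, median -0.055). Dapk1, a kinase that acts on Beclin 1, rose 5.47-fold (adjusted p = 0.00185), the membrane-curving protein gene Sh3glb1 1.94-fold (adjusted p = 0.00803) and the lipid scramblase gene Tmem41b 1.93-fold (adjusted p = 0.00683). Wdr45, a relative of the WIPI proteins, fell 1.56-fold (adjusted p = 0.0336), a call that ended without WGP replicate 1 (0.0874), WGP replicate 2 (0.129) or medium replicate 1 (0.077).

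Of 16 other selective autophagy receptors, 3 rose and 4 fell (median -0.11), beside the 3 and 2 among the 5 receptors above. The share of the 16 that changed was 43.8%, near the 40.6% of all tested genes. Tollip, a ubiquitin-binding adaptor, rose 2.14-fold (adjusted p = 0.00518). The aggregate-binding scaffold Wdfy3 fell 2.58-fold (adjusted p = 0.00735), and of the receptors for endoplasmic reticulum Ccpg1 fell 2.06-fold (adjusted p = 0.00416) and Retreg1 1.67-fold (adjusted p = 0.0257). Of 14 genes of fusion with lysosomes, 1 rose and 4 fell (35.7% changed, median -0.087), all by less than 2-fold. Of the tethering subunits, Vps18 rose 1.51-fold (adjusted p = 0.0129), while Vps39 and Vps41 fell 1.47-fold each (adjusted p of 0.0196 and 0.0151), and the RAB7 effector Rilp fell 1.40-fold (adjusted p = 0.0489). The calls of Retreg1, Vps18, Vps39, Vps41 and Rilp ended when 1 array was left out, with a highest adjusted p of 0.1001, 0.0756, 0.1025, 0.0833 and 0.197. Those arrays were both WGP arrays for Vps18, these and medium replicate 2 for Retreg1, Vps39 and Vps41, and each of the 4 for Rilp. Median scaling ended the calls of Retreg1 (0.0761), Vps39 (0.081), Vps41 (0.0777) and Rilp (0.228) as well. That of Rilp was also lost with the authors' series values (0.0511) and over every kept probe (0.0612).

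Of 23 lysosomal hydrolases and membrane proteins, 7 rose and 2 fell (median 0.21). The share that changed was 39.1%, near the 40.6% of all tested genes. The protease gene Ctsl rose 4.87-fold (adjusted p = 0.00152), the tetraspanin gene Cd63 1.88-fold (adjusted p = 0.0132), the cholesterol transporter gene Npc1 1.68-fold (adjusted p = 0.00839) and the protease gene Ctsa 1.67-fold (adjusted p = 0.0105). The call of Cd63 ended without WGP replicate 1 (0.0531) or 2 (0.0578), that of Npc1 without WGP replicate 2 (0.0525) and that of Ctsa without WGP replicate 1 (0.0597) or as the mean of its probes (0.0948). Of 7 genes of the NADPH oxidase that LC3-associated phagocytosis needs, 3 rose and 2 fell (71.4% changed, median 0.45). The cytosolic subunit Ncf4, which binds the lipid made by PIK3C3, rose 3.43-fold (adjusted p = 0.00229), and the membrane subunits Cybb and Cyba rose 2.13-fold (adjusted p = 0.00452) and 1.75-fold (adjusted p = 0.00785). The GTPase gene Rac2 fell 2.26-fold (adjusted p = 0.0048). Rubcn, which encodes Rubicon and is named here after its values were seen, was at 3.83 and 3.89 with WGP against 4.49 and 4.42 in medium (-0.60 ± 0.096, SE, adjusted p = 0.0142), beside the fall of Uvrag. The call of Rubcn was not checked under the other settings.

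**Figure D3:**
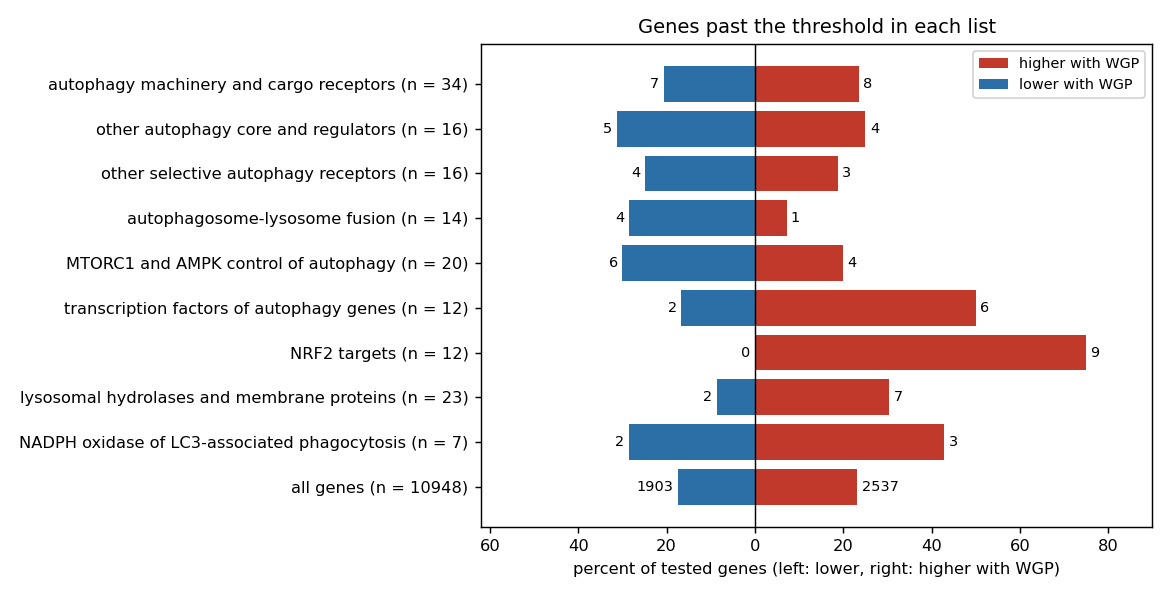
Share of tested genes past the threshold in each list (percent, horizontal axis), with genes higher with WGP to the right and lower to the left, and gene counts at the bars. The autophagy genes (8 higher, 7 lower) lie near all genes (2537 higher, 1903 lower), and the NRF2 targets have 9 higher and 0 lower.

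Across 14 other ways of processing the data, 4 of the 15 changed members passed the test every time, Optn, Sqstm1, Tax1bp1 and Atg12, and none of the 15 changed sign (0 of 15). With the slide as a block all 15 passed, and Atg2b joined them. Without a filter on dim probes 10 of the 15 no longer passed, with an adjusted p of 0.0528 to 0.159, where 20274 genes were tested in place of 10948. They were Ulk1, Ulk2, Atg13, Uvrag, Atg2a, Atg3, Atg5, Atg16l2, Gabarapl1 and Nbr1. The same setting ended 12 calls among the genes named from other lists (adjusted p of 0.051 to 0.183), those of Prkag2, Cyba, Vps18, Vps39, Vps41, Rilp, Cd63, Npc1, Ctsa, Sh3glb1, Wdr45 and Retreg1. Normexp background correction, with an offset of 50, gave changes over 1.5 times smaller on the log2 scale for 8 of the 15 members and 16 of the 32 genes from other lists. Besides Optn and Calcoco1, the members were Ulk2 (-0.60), Atg13 (0.27), Atg2a (-0.30), Atg3 (0.29), Atg16l2 (-0.31) and Nbr1 (-0.33). From the other lists, Dapk1 was at 1.60, Tmem41b at 0.61, Tollip at 0.68, Wdfy3 at -0.68, Ccpg1 at -0.48, Retreg1 at -0.40, Prkag2 at -0.53, Vps18 at 0.37, Vps39 at -0.27, Vps41 at -0.34 and Npc1 at 0.40. As the mean of their probes, Sh3glb1 was at 0.61 and Tollip at 0.60. Some members that did not pass as reported passed elsewhere: Atg101 with quantile normalization (-0.38, adjusted p = 0.042), Gabarapl2 with median scaling (0.56, adjusted p = 0.0337), and Wipi2 and Atg16l1 over probes detected on all 4 arrays (adjusted p of 0.041 and 0.0395). The mean of both Wipi1 probes passed too (-0.55, adjusted p = 0.0442).

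**Figure D4:**
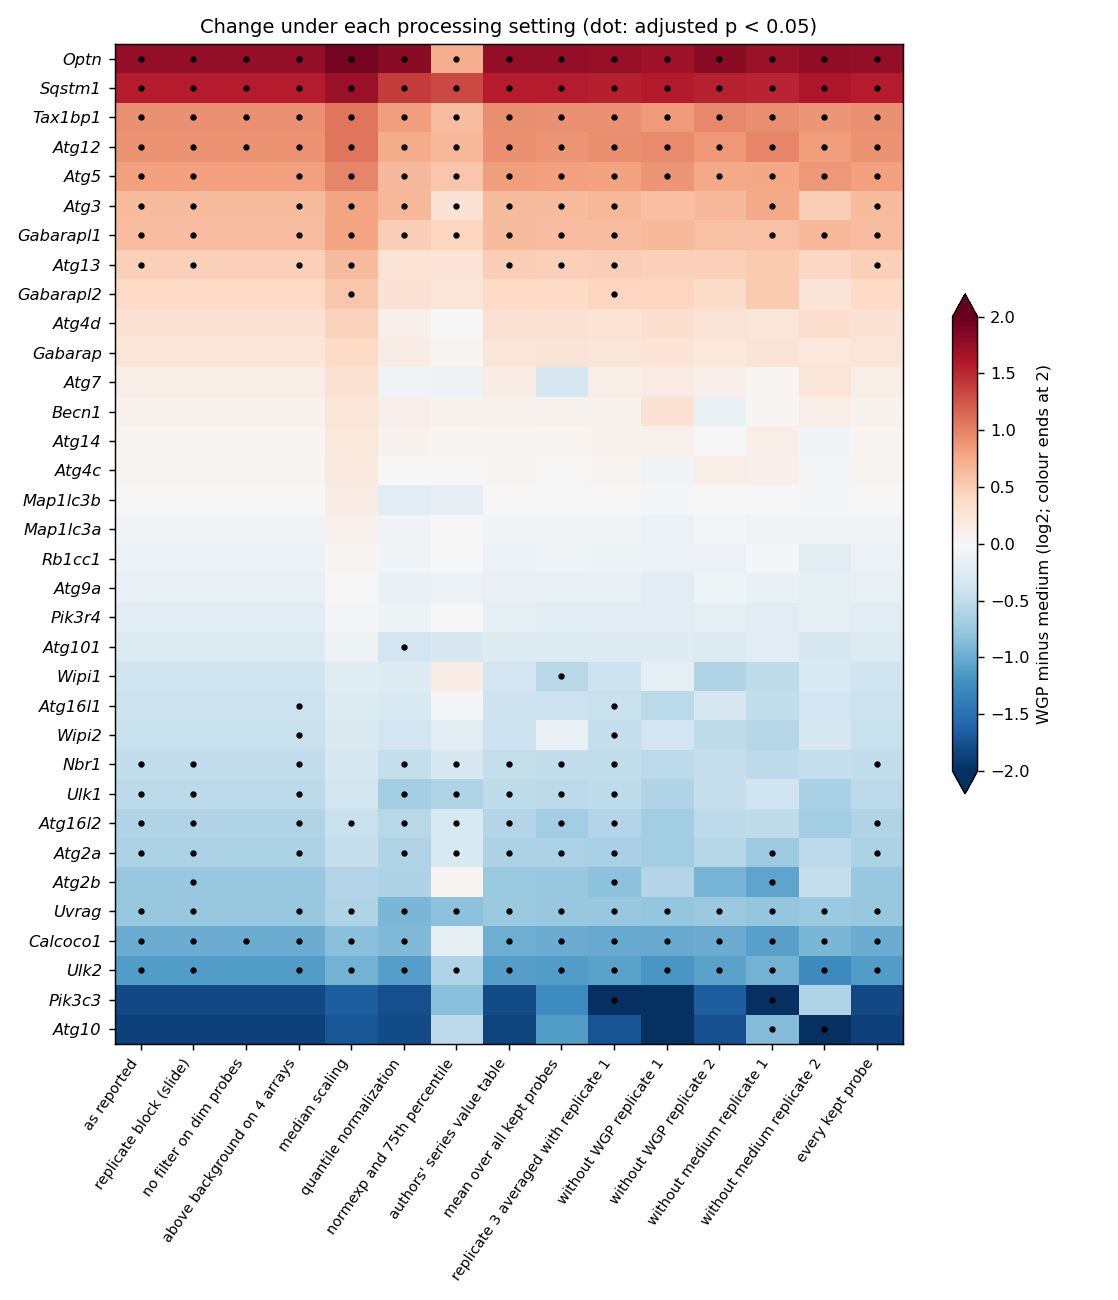
Change of each tested autophagy gene (rows, ordered by the reported change) under each processing setting (columns), coloured from lower (blue) to higher (red) with WGP in log2 units, with a dot where the adjusted p was under 0.05. Optn, Sqstm1, Tax1bp1 and Atg12 have a dot in every column, and the column without a filter on dim probes has the fewest dots.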

How the data were processed

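RNA of macrophages kept with WGP or in medium was hybridised to 1-colour Agilent arrays, and the scanner output of 6 files was used, 3 a group. Per the file headers and the submitters' processing notes, Agilent Feature Extraction 10.7.3 made the intensities, and the processed signal is background-subtracted and spatially detrended, with no scaling between arrays. The series table deposited by the authors holds log2 values. After each probe was centred, they correlated at 0.9999 with the scaled scanner values over 39394 probes (largest difference 0.0107), and the baseline they are relative to stays unknown. Their columns had medians of 0.0998, 0.13 and 0.1004 for WGP replicates 1 to 3 and of -0.0144, 0.164 and 0.103 for medium replicates 1 to 3.

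Replicate 3 was replicate 1 again in both groups, with equal spot signals and backgrounds at all 44397 spots. Their processed signal was 1.3 times WGP replicate 1 (within 0.488%) and the mean of medium replicates 1 and 2 (within 0.695%). They entered no fit, so each group had n = 2 arrays.

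Control spots (1377) and outlier spots (118 to 183 an array) were left out, and no spot was saturated (0 on every array). The level of a probe was log2 of its processed signal minus the 75th percentile of the array, averaged over spots. RefSeq accessions of assembly GRCm38.p6 named 26761 of 39429 probes, for 20283 genes. A probe was kept where at least 0.5 of its spots were well above background on each array of either group, which left 18443 probes. The brightest kept probe stood for each of 10948 genes. The array design lies on an older build, so no probe coordinates are given.

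The comparison of WGP with medium used limma 3.58.1 (R 4.3.3) (residual degrees of freedom 2, prior 2.19), with p-values adjusted after Benjamini-Hochberg over all 10948 genes and a threshold of 0.05. Adjusted p-values come from this fit unless another setting or all kept probes are named. The test was tried on simulated data. Replicates 1 and 2 were on slides 1 and 2, per the file headers. The header of medium replicate 3 names slide 3, though its spot signals equal those of medium replicate 1 on slide 1. The slide numbers rest on these headers alone. On both slides WGP was at position 3 and medium at position 1, so position and treatment cannot be told apart. The deviations from the group means of arrays on 1 slide correlated at 0.14. Alternatives were the slide as a block, filters, scalings, background correction, the authors' table, other probe rules, averaging replicate 3 with replicate 1, and each array left out with the same genes kept. Normexp used the median spot signal, the column the files hold, in place of the planned mean signal. Genes named on other lists were at most 4 a list, those with the largest change among genes past the threshold. Rubcn was named beside them after its values were seen. The genes described and the lists were chosen with earlier results of these data known. 1 marker gene and the sum over its list are not reported here.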

Additional observations from a re-analysis of the deposited data

How the results depend on the processing

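Of 10948 genes 4440 changed, and of the autophagy genes 15 (8 higher, 7 lower, median change -0.099). Without a filter on dim probes the counts were 1532 genes and 5 members (4 higher, 1 lower), with 20274 genes tested. Median scaling moved the median of all genes to 0.193, the median of the members to 0.066 and the members lower to 4, and of the genes changed 72.72% were higher (3193 higher, 1198 lower), in place of 57.14% (2537 higher, 1903 lower). Normexp gave a median of -0.00333 over the members, where its offset shrinks changes of dim genes by construction. Averaging replicate 3 with replicate 1, which mixes medium replicate 2 into replicate 1, gave 11 members lower. When 1 array was left out, 2253 to 3283 genes and 8 to 14 members changed (5 to 7 higher, 3 to 7 lower), with fewer samples, a lone array being assumed to vary like the other group, and the median of the members was -0.13 to -0.054. With the replicate block (the slide), 4087 genes and 16 members changed (8 higher, 8 lower). The number is a slide per the file headers only, the block ended the call of 0 of the 15 changed members, and the correlation of deviations within a slide was 0.14.

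The members that changed sign under a setting had not passed the test. With median scaling Rb1cc1 was at 0.042, Atg9a at 0.0092, Map1lc3a at 0.090 and Map1lc3b at 0.15. With normexp Pik3r4 was at 0.015, Atg2b at 0.041, Wipi1 at 0.15 and Atg7 at -0.11. Atg7 was at -0.065 with quantile normalization and at -0.33 as the mean of its probes. With 1 array left out, Becn1 ran from -0.14 to 0.29, Atg4c from -0.068 to 0.13 and Map1lc3b from -0.036 to 0.0097, and Atg14 was at -0.052 without medium replicate 2, while Atg4c was at -0.032 there. The cause was not tested. Brightness over background limited Atg4a and Atg4b, which were not tested. The planned comparison of protein sequences was not run.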
